A study of Mus musculus with 21 samples.

Results

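Immunoglobulin genes, which encode the heavy and light chains of antibodies, were examined in 21 mammary tumors from mice that express the activated ErbB2/Neu oncogene. The group was set by name and held every gene whose symbol begins with Ighv, Igkv, Iglv, Ighg, Igha, Ighm, Igkc or Iglc. At least 1 read was counted on 231 such genes among the 38730 genes with a read in any tumor. One of them, Ighmbp2, is a helicase that shares only the letters of the name, and it was left out, so that 230 immunoglobulin genes remained of 359 that are annotated. No filter on low counts was applied.

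The 9 NeuNT control tumors each came from a different mouse and carried FloxNeoNeuNT with MMTV-CreNLST, in which the mammary-directed MMTV promoter drives Cre and Cre switches on an activated Neu cDNA placed at the endogenous ErbB2 locus. Of these mice, 7 also carried a Gata4 loxP/+ allele and 2 did not (N-15 and N-17). The 12 RhoC tumors carried R26(RhoC/+) besides FloxNeoNeuNT and MMTV-CreNLST, so that Cre also released a wildtype RhoC cDNA, with eGFP, from the ROSA26 locus. They came from 8 mice, with 4 tumors (R-13 to R-16) from mouse P497, 2 (R-6 and R-7) from mouse N9255, and R-18, whose label names no mouse, taken as a mouse of its own. All mice were virgin females whose tumors were collected at humane endpoint. The study describes tumors arising at a younger age in RhoC mice than in controls, and the age of each mouse here was not given, so age and cohort cannot be told apart. The RNA came from tumor tissue, so antibody transcripts were measured together with those of every other cell in it. Total counts ran from 47309780 to 100741339 per tumor. Rhoc itself lay between 26.1 and 173 CPM (counts scaled to library size with TMM factors) in control tumors and between 22.5 and 146 CPM in RhoC tumors, and the ranges overlapped.

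An antibody is built from 2 kinds of chain. A B cell joins 1 variable (V) gene to short D and J segments to make a heavy chain, and 1 V gene to a J segment to make a kappa or lambda light chain, and each V region is then spliced to a constant gene. The heavy constant gene sets the class: Ighm encodes IgM, the first class made, the Ighg genes encode the IgG subclasses that follow class switching, and Igha encodes IgA, the class secreted into milk and at mucosal surfaces. Plasma cells, the end stage of the B lineage, fill much of their RNA with these transcripts, and each clone carries its own pair of V genes. In bulk tumor RNA, fewer plasma cells and less antibody RNA per cell cannot be told apart.

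The heavy chain genes with reads lay on chromosome 12 (113254830 to 116010093, 118 genes), the kappa genes on chromosome 6 (67555497 to 70726966, 106 genes) and the lambda genes on chromosome 16 (19061618 to 19260859, 6 genes), in the coordinates of GRCm38. By kind they were 112 heavy V genes, 105 kappa V genes, 3 lambda V genes, 6 heavy constant genes, the kappa constant gene Igkc and 3 lambda constant genes. Of the V genes, 30 are annotated as pseudogenes. Reads were few on most of them. Of 82704 reads in all, 40.8% fell on the heavy constant genes, 40.0% on Igkc and 18.9% on V genes, 34 genes had reads in 1 tumor only, and 43 had reads in at least 11 tumors.

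The sequences of 4 V genes are shown because the results below turn on them. Igkv8-21 and Igkv13-85 are the members that passed the test between cohorts, Igkv14-111 had the highest mean share of kappa V reads, and Ighv1-26 had the highest mean share of heavy V reads, most of it from N-7. Each is the coding strand of the last annotated exon, 5′ to 3′, read from the GENCODE M21 transcripts of GRCm38, with at most its final 300 bases printed. Capitals mark the bases that differ from the V gene with the closest sequence.
Igkv8-21: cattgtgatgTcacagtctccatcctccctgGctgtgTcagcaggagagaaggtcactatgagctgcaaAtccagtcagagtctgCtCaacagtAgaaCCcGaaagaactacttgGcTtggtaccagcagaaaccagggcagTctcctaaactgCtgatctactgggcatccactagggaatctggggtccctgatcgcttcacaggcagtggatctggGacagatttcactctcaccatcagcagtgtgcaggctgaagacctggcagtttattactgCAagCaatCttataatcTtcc
Igkv13-85: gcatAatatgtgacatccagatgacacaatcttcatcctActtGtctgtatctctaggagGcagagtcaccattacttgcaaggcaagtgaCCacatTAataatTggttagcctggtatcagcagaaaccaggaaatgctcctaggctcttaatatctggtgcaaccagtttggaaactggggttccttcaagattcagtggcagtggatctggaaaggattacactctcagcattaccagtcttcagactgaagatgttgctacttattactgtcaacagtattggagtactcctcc
Igkv14-111: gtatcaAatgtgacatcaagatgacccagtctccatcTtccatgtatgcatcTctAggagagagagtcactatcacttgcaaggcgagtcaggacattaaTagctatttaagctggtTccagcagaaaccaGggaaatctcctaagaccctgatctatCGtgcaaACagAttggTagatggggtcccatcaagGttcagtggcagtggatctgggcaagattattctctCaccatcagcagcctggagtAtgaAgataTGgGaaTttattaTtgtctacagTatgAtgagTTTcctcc
Ighv1-26: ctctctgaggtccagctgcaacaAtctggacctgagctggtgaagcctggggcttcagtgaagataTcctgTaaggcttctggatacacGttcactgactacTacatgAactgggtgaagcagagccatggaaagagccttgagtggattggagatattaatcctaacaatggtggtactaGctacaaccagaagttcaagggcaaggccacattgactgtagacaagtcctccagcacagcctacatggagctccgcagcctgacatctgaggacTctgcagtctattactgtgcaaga
These stretches lie at chr6:70314895-70315194 on the minus strand, chr6:68930269-68930566 on the minus strand, chr6:68256572-68256869 on the plus strand and chr12:114788372-114788671 on the minus strand, in that order. Igkv8-21 differed from Igkv8-19 at 20 bases and was 93.3% identical to it. Igkv13-85 differed from Igkv13-84 at 9 bases, all of them before an unbroken run of 193 shared bases. Igkv14-111 was the most distinct of the 4, with 27 bases different from Igkv14-126. Ighv1-26 differed from Ighv1-18 at 8 bases. A read that fits 2 V genes equally well was discarded before counting, so these counts rest on reads that reached a distinguishing base. FloxNeoNeuNT mice are listed as FVB and Gata4 loxP mice as FVB.CD1, R26RhoC chimeras were crossed to FVB, no strain is listed for MMTV-CreNLST, and the reference genome is that of C57BL/6. V genes can differ between strains, and the cohorts need not share 1 strain background. How this bears on the counts of single V genes was not tested.

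Immunoglobulin RNA was lower in RhoC tumors than in controls. The summed level of the 230 genes ran from 2.95 CPM (N-9) through a median of 63.1 to 304 CPM (N-4) in the 9 controls, and from 0.703 CPM (R-13) through a median of 13.99 to 73.3 CPM (R-2) in the 12 RhoC tumors. The cohorts overlapped, with 4 controls (N-3, N-4, N-8 and N-17) above every RhoC tumor, 1 RhoC tumor (R-13) below every control, and 11 of 12 RhoC tumors below the control median. On the log2 scale the mean was 5.87 ± 2.17 (SD, n = 9) in controls and 3.60 ± 1.73 (SD, n = 12) in RhoC tumors, a difference of -2.27 ± 0.88 (SE), or 4.81-fold lower (exact permutation test, 2-tailed, p = 0.0154; Benjamini-Hochberg adjusted p = 0.0384 over the 10 single-value comparisons made here). N-9 and N-1 were the controls with the lowest totals (2.95 and 11.3 CPM), and N-9 lay below 11 of the 12 RhoC tumors.

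This call was close to its threshold. With counts summed over each mouse the difference was -1.67 with adjusted p = 0.197, without the 4 tumors of mouse P497 it was -1.73 with adjusted p = 0.183, with only the Gata4 loxP/+ controls it was -2.08 with adjusted p = 0.113, and on the constant genes alone it was -2.15 with adjusted p = 0.0564 (exact permutation tests). It was also lost when any 1 of 13 tumors was left out (N-3, N-4, N-6, N-7, N-8, N-15, N-17, R-1, R-6, R-7, R-13, R-14 or R-15), with adjusted p of at most 0.0863 and differences that all stayed negative.

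**Figure D1:**
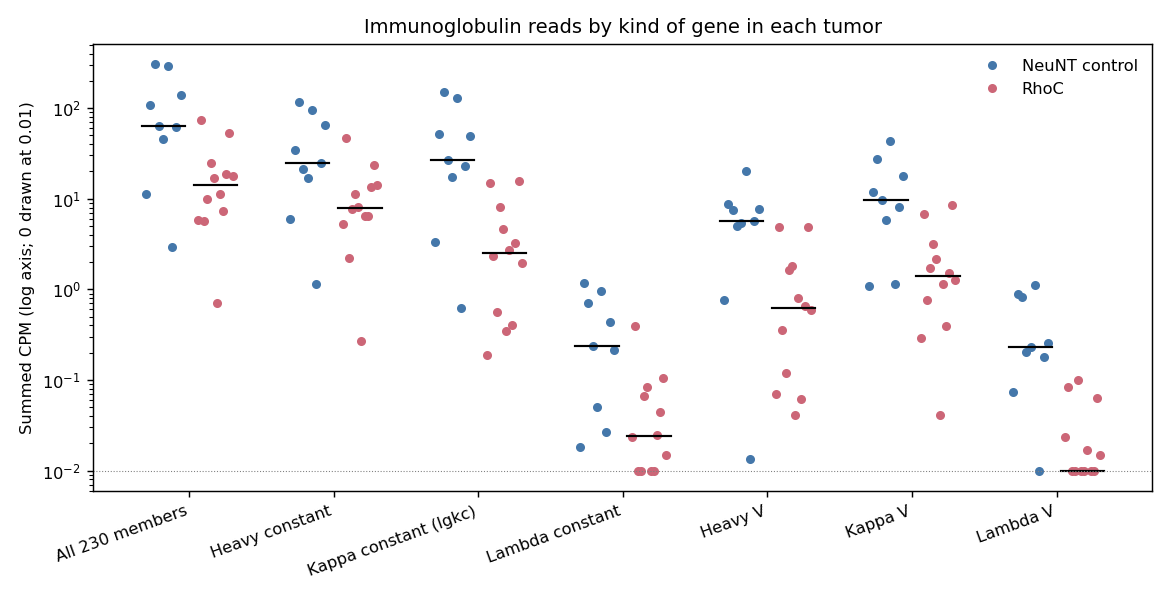
Summed level of each kind of immunoglobulin gene in CPM on a log axis, 1 point per tumor, with NeuNT control tumors in blue, RhoC tumors in red, the median of each cohort as a black bar and tumors with no reads drawn at 0.01. The control median of all 230 members was 63.1 CPM and the RhoC median 13.99 CPM, and the cohorts overlapped in every kind.

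Igkc, the constant region carried by every kappa light chain, was the member with the most reads. It measured 0.616 CPM in the lowest control (N-9), 26.6 at the median and 152 in the highest (N-4), and 0.188 CPM in the lowest RhoC tumor (R-1), 2.52 at the median and 15.7 in the highest (R-18). All 12 RhoC tumors lay below the control median and 7 of 9 controls lay above every RhoC tumor. The fitted log2 fold change was -3.46 ± 0.82 (SE), and it did not pass the test over all genes (edgeR quasi-likelihood test, adjusted p = 0.0755), which 0.119% of all genes passed. With DESeq2, which called 5.94% of the genes it gave an adjusted p, Igkc passed (adjusted p = 0.000869).

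Lambda chains were rare in both cohorts. Lambda constant reads made up 0.289 to 4.17% of light constant reads in control tumors and 0 to 11.1% in RhoC tumors, and the highest value, in R-1, rested on 2 of 18 reads (95% Wilson interval 3.10 to 32.8%, counting error only). R-6, R-7, R-13 and R-14 had no lambda constant read, which in R-13, with 17 light constant reads, had a 95% Wilson interval reaching 18.4%. The mean share was 1.29 ± 1.27% in controls and 2.07 ± 3.28% in RhoC tumors, and the difference did not pass the test (0.78 ± 1.04 percentage points, SE, exact permutation p = 0.588, adjusted p = 0.84). Its sign turned without R-1 (-0.044 points) and when V reads were used in place of constant reads (-1.90 points).

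No lambda gene passed the test over all genes with edgeR, whereas DESeq2 called Iglv1 (adjusted p = 0.00194) and Iglc2 (adjusted p = 0.017). Iglv1, the most used lambda V gene, had reads in 7 of 9 controls, up to 0.754 CPM in N-8, and in 4 of 12 RhoC tumors, none above 0.0841 CPM, and the fitted log2 change was -4.35 ± 0.91 (SE, edgeR adjusted p = 0.0546). That change was -5.37 without R-10, -3.96 without N-8 and -3.04 with limma's voom and mouse as a random effect. Iglv2 had 50 reads in control tumors (N-3, N-4, N-7 and N-8) and 0 in RhoC tumors. Taking 3 reads over the RhoC cohort as the limit for that count of 0, it was at least 21.6-fold lower there. Iglv3 was at a median of 0.0836 CPM in controls and 0 in RhoC tumors. Iglc2, the lambda constant gene with most reads, was found in 9 of 9 controls and 7 of 12 RhoC tumors, with 0.298 ± 0.346 against 0.0344 ± 0.0700 CPM (SD) and adjusted p = 0.107. Iglc2 overlaps the joining segment Iglj2 and Iglc3 overlaps an antisense transcript, so reads of either pair may have been lost or shared.

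The heavy constant genes had fitted log2 fold changes from -0.66 (Ighm) to -4.56 (Ighg1). Ighg1 had reads in every control, from 0.0268 CPM (N-9) through a median of 3.09 to 23.5 CPM (N-8). In RhoC tumors it ran from 0 (R-12 to R-15) through a median of 0.0777 to 1.10 CPM (R-18), and 7 of 9 controls lay above every RhoC tumor. The log2 fold change of Ighg1 was -4.56 ± 1.02 (SE, edgeR adjusted p = 0.0704, and DESeq2 adjusted p = 0.000394), and it was -3.76 without N-8 and -5.19 without R-18 (edgeR). Ighg2c reached 77.1 CPM in N-4 and no more than 9.17 CPM in any other tumor, with medians of 2.92 CPM in controls and 0.0693 CPM in RhoC tumors. Ighg2b had medians of 2.39 and 0.0647 CPM, and R-2 and R-18 (5.03 and 6.24 CPM) lay within the control range. Ighg3 was scarce except in N-4 (8.56 CPM) and R-12 (0.853 CPM).

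Among the other classes, Igha had a median of 7.72 CPM in controls, between 0.134 (N-9) and 23.0 (N-8), and a median of 1.84 CPM in RhoC tumors, between 0.0207 (R-13) and 13.7 (R-2), and the fitted log2 change was -1.64 ± 0.82 (SE, adjusted p = 0.288). Ighm had medians of 8.07 and 5.56 CPM, and its ranges of 0.804 to 28.9 CPM and 0.207 to 22.4 CPM overlapped almost wholly (log2 fold change -0.66 ± 0.59, SE, adjusted p = 0.524). None of the 6 heavy constant genes passed the test over all genes with edgeR, 6 of 6 had a negative fold change, and 3 had an unadjusted p under 0.05, as 9.81% of all genes had with a lower level in RhoC tumors.

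Within the heavy chain reads of each tumor, the IgG share was lower in RhoC tumors. It was 39.3 ± 23.3% (SD, n = 9) in controls, from 16.1% (N-1) to 81.7% (N-4), and 11.03 ± 12.9% (SD, n = 12) in RhoC tumors, from 0.571% (R-15) to 45.2% (R-18). In 8 of 12 RhoC tumors and 0 of 9 controls fewer than 10% of heavy constant reads were IgG. The difference was -28.3 ± 8.6 percentage points (SE, exact permutation p = 0.00116, adjusted p = 0.0116), and 11 of 12 RhoC tumors lay below the control median. It passed in all 21 fits that left out 1 tumor (adjusted p at most 0.0276). With counts summed over each mouse it was -26.3 points and no longer passed (adjusted p = 0.0716), nor did it without the tumors of mouse P497 (-25.7 points, adjusted p = 0.0763). Ighm reads are part of the total that this share is taken from. Against Igkc reads instead, IgG reads stood at 0.384 ± 0.172 (SD) in controls and 0.323 ± 0.305 (SD) in RhoC tumors. The medians of that quotient were 0.338 and 0.167, and its difference was not tested.

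The IgM share moved the other way. It was 35.5 ± 20.5% in controls, from 11.8% (N-4) to 69.8% (N-9), and 65.6 ± 24.9% in RhoC tumors, from 28.8% (R-18) to 95.5% (R-1), and 10 of 12 RhoC tumors lay above the control median (30.1 ± 9.9 points, SE, exact permutation p = 0.0103, adjusted p = 0.0342). IgM was the largest class in 9 of 12 RhoC tumors and in 3 of 9 controls (N-1, N-9 and N-17), IgG was the largest in 4 controls and in R-18, and IgA in 2 tumors of each cohort (N-3 and N-15, R-10 and R-12). The share counts all Ighm reads, whether or not heavy V reads stood beside them. Heavy V reads were few beside Ighm in R-1 (6 beside 426), R-7 (7 beside 399), R-15 (5 beside 494) and N-9 (1 beside 60). How far such Ighm reads stand for IgM chains was not tested. The IgM call was lost with counts summed over each mouse (26.4 points, adjusted p = 0.136), without mouse P497 (23.2 points, adjusted p = 0.183), with only the Gata4 loxP/+ controls (31.0 points, adjusted p = 0.0626) and without any 1 of N-3, N-4, N-6, N-7, N-8, R-1, R-7, R-13 and R-15 (adjusted p at most 0.0716). The IgA share was 25.2 ± 15.2% in controls and 23.3 ± 18.2% in RhoC tumors, a difference of -1.84 ± 7.30 points (SE, exact permutation p = 0.806, adjusted p = 0.867). Each share is read within 1 tumor, so it does not depend on the scaling between tumors, and the 3 shares sum to 100, so they are not independent of one another.

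**Figure D2:**
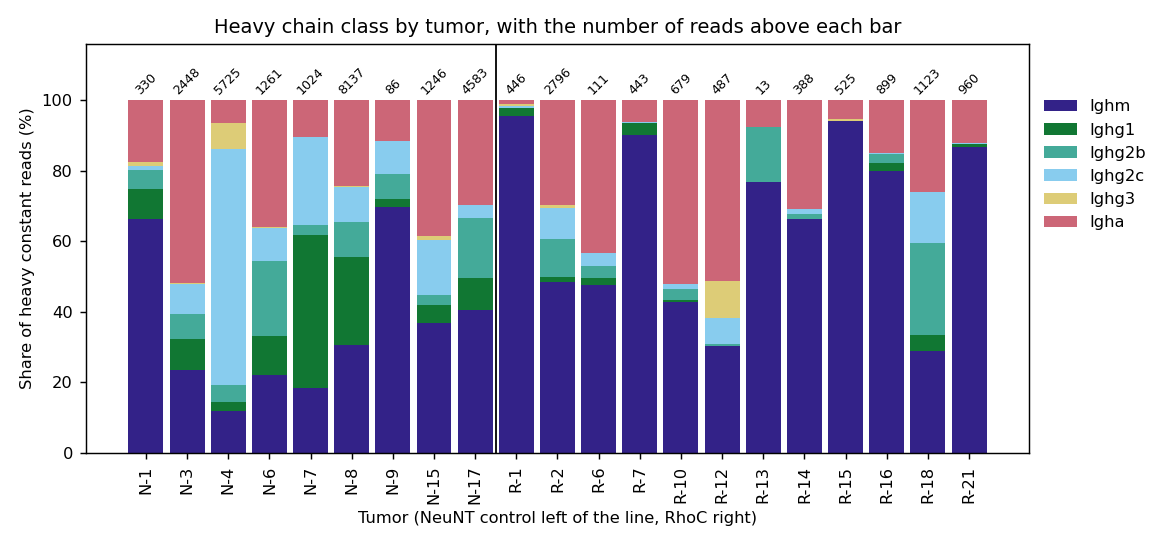
Share of heavy constant reads on each class in percent, 1 stacked bar per tumor, with the number of heavy constant reads above the bar and control tumors left of the line. IgG (greens, light blue and yellow) took 16.1 to 81.7% in controls and 0.571 to 45.2% in RhoC tumors, and R-13 rests on 13 reads.

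The precision of these shares followed the reads behind them. In N-8, with 8137 heavy constant reads, the IgG share of 44.97% had a 95% Wilson interval of 43.9 to 46.1%. In R-13, with 13 reads, the share of 15.4% had an interval of 4.33 to 42.2%. R-15, with 525 reads, had an IgG share of 0.571% with an interval of 0.195 to 1.67%, and R-1 and R-7, with 446 and 443 reads, had 3.36% and 3.84%.

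The heavy to light balance was the next measure that differed. Levels per length were used, from the deposited FPKM, since the constant genes differ in length. The summed heavy constant level over the summed light constant level was 0.154 (N-3) in the lowest control, 0.264 at the median and 0.497 (N-9) in the highest. In RhoC tumors it was 0.201 (R-13) in the lowest, 0.699 at the median and 6.92 (R-1) in the highest, and 7 of 12 lay above every control. The mean log2 ratio was 1.74 ± 0.54 higher in RhoC tumors (SE, 3.34-fold, exact permutation p = 0.00879, adjusted p = 0.0342), and the difference held with counts summed over each mouse (1.81, adjusted p = 0.0123).

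The ratio depended on Ighm. The quotient of Ighm to Igkc reads was 0.0895 (N-4) to 1.304 (N-9) in controls and 0.436 (R-18) to 26.6 (R-1) in RhoC tumors. R-1 had 426 Ighm reads beside 16 Igkc reads, R-15 had 494 beside 33, and R-7 had 399 beside 33. Ighm exceeded Igkc in 7 of 12 RhoC tumors and in 2 of 9 controls, N-1 and N-9, which were also the controls with the lowest totals. The other classes stayed closer to Igkc, with Igha to Igkc at 0.0493 to 0.416 in controls and 0.0588 to 0.920 in RhoC tumors, and the IgG genes at 0.163 to 0.703 and 0.0683 to 0.938. Without Ighm, an alternative added after these values were seen, the log2 difference in the heavy to light ratio was 0.26 ± 0.27 (SE, adjusted p = 0.7). From V reads alone, as Ighv over Igkv plus Iglv reads, it was 0.20 ± 0.65 (SE, adjusted p = 0.867).

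Heavy V reads were few beside Ighm in several of the 9 tumors with more Ighm than Igkc, in both cohorts. R-1 had 6 heavy V reads beside its 426 Ighm reads, R-7 had 7 beside 399 and R-15 had 5 beside 494, and the control N-9 had 1 beside 60. R-21 (40 beside 834) and R-16 (44 beside 719) were intermediate, and R-2 (294 beside 1354), R-14 (48 beside 257) and N-1 (42 beside 219) had more heavy V reads for their Ighm. In the other 7 controls there were 0.585 to 3.46 Ighm reads per heavy V read, and in the other 5 RhoC tumors 1.37 to 5, the last from 10 and 2 reads in R-13. Tumors of 1 mouse could differ in this respect. Of the pair from mouse N9255, R-6 had a ratio of Ighm to Igkc of 0.449 and R-7 of 12.1, and the 4 tumors of mouse P497 had ratios of 0.588, 1.60, 14.97 and 3.298. Ighd, the IgD gene next to Ighm and outside the name rule, was low in both cohorts, with medians of 0.239 CPM in controls and 0.18 CPM in RhoC tumors.

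The call on the heavy to light ratio was lost with only the Gata4 loxP/+ controls (1.79, adjusted p = 0.0626), without the tumors of mouse P497 (1.76, adjusted p = 0.0763) and without any 1 of N-3, N-4, N-6, N-7, N-8, R-1, R-7 and R-15 (adjusted p at most 0.069).

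**Figure D3:**
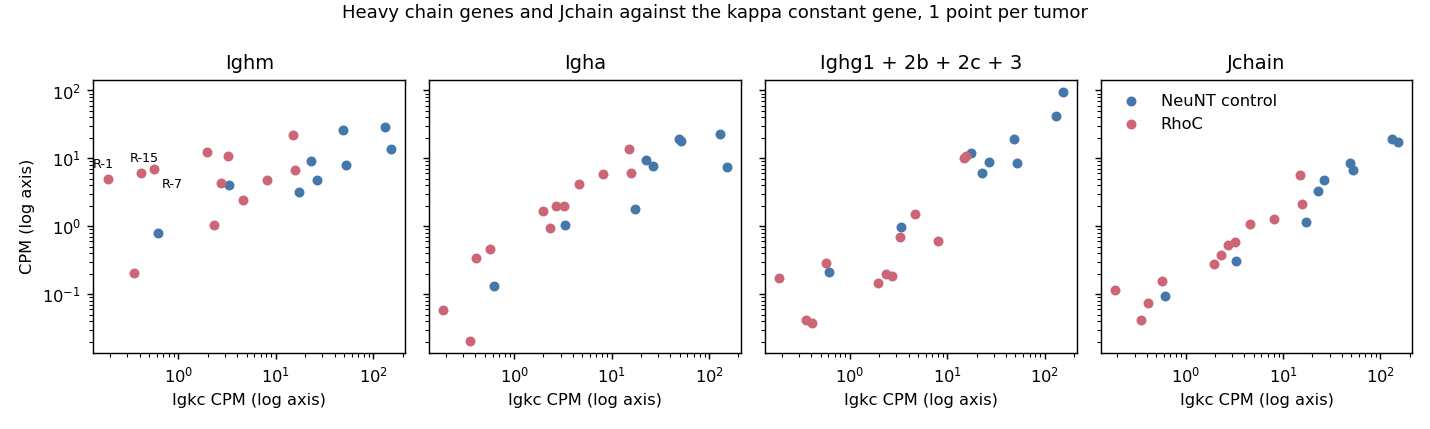
Level of Ighm, Igha, the summed IgG genes and Jchain against Igkc, in CPM on log axes, 1 point per tumor, with control tumors in blue and RhoC tumors in red. Igha, IgG and Jchain lay higher in tumors with more Igkc, whereas R-1, R-7 and R-15 had 4.995, 6.87 and 6.12 CPM of Ighm at 0.188, 0.568 and 0.409 CPM of Igkc.

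The use of V genes varied from tumor to tumor. Shares were computed in tumors with at least 100 reads of a kind, which left 7 controls and 3 RhoC tumors (R-2, R-12 and R-18) for heavy V genes and 7 controls and 6 RhoC tumors for kappa V genes. Leading genes differed between most tumors: the 7 controls had 7 different top heavy V genes and 7 different top kappa V genes, the 3 RhoC tumors had 3 different top heavy V genes, and the 6 RhoC tumors had 5 different top kappa V genes. The 4 tumors of mouse P497, of which R-16 alone had 100 kappa V reads, had 4 different top kappa V genes (Igkv4-61, Igkv10-96, Igkv14-111 and Igkv6-25).

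Among heavy V genes, Ighv1-26 had the highest mean share over these 10 tumors, 6.97%, and took 50.2% of heavy V reads in N-7 (162 of 323 reads, 95% Wilson interval 44.7 to 55.6%). Without N-7 its mean share was 2.17%, and Ighv3-2 then had the highest, 5.77%. Ighv1-5 took 38.5% in N-15 (110 of 286 reads). In the other tumors of this set no heavy V gene passed 20.6%, the share of Ighv8-12 in R-12. Ighv3-2 was the heavy V gene with the most reads, 377 in 14 tumors, and the leading gene of N-8 (10.2%), although it is annotated as a pseudogene in the reference genome. Ighv8-8 and Ighv5-17 also had reads in 14 tumors, 7 in each cohort. The Ighv1 family, the largest, held 45.8% of heavy V reads on average, 48.6 ± 16.7% in 7 controls and 39.3 ± 3.5% in 3 RhoC tumors (SD).

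Among kappa V genes, Igkv8-21 took 42.4% of kappa V reads in N-4 (571 of 1348, 95% Wilson interval 39.7 to 45.01%), Igkv3-2 took 29.2% in N-15 (121 of 414), Igkv1-117 took 20.5% in N-17 (259 of 1261) and Igkv8-30 took 20.2% in R-10 (38 of 188). N-4 was also the tumor in which Ighg2c and Ighg3 stood out. Among controls the top kappa V gene took the smallest share in N-3 (Igkv1-110, 74 of 835 reads, 8.86%), N-6 (Igkv6-23, 10.4%) and N-8 (Igkv3-5, 417 of 3767 reads, 11.1%).

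The reads of Igkv14-111 did not follow those of Igkc from tumor to tumor. It led the kappa V reads of N-7, N-9, R-7, R-15 and R-18, and had the highest mean share of all kappa V genes, 14.4% over 13 tumors and 8.43% without R-7. In R-7 it took 86 of 100 kappa V reads (95% Wilson interval 77.9 to 91.5%) where Igkc had 33 reads, and in N-9 it took 66 of 85 where Igkc had 46. Its count was highest in N-8, with 200 reads beside 11270 of Igkc, and it had 110 beside 1036 in N-7 and 106 beside 741 in R-18. Other tumors had few such reads at either end of the Igkc range, with 6 in N-4 and in N-17 (7546 and 3421 Igkc reads), 5 in R-1 (16 Igkc reads) and 0 in R-13 (17 Igkc reads). Its level was 0.717 ± 0.834 CPM in controls and 0.419 ± 0.704 CPM in RhoC tumors (log2 fold change -0.78 ± 0.88, SE, adjusted p = 0.624). The fold change was -1.50 without R-18 and -0.34 without N-8 on the log2 scale. Igkv14-111 is also the most distinct of the 4 sequences printed above.

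**Figure D4:**
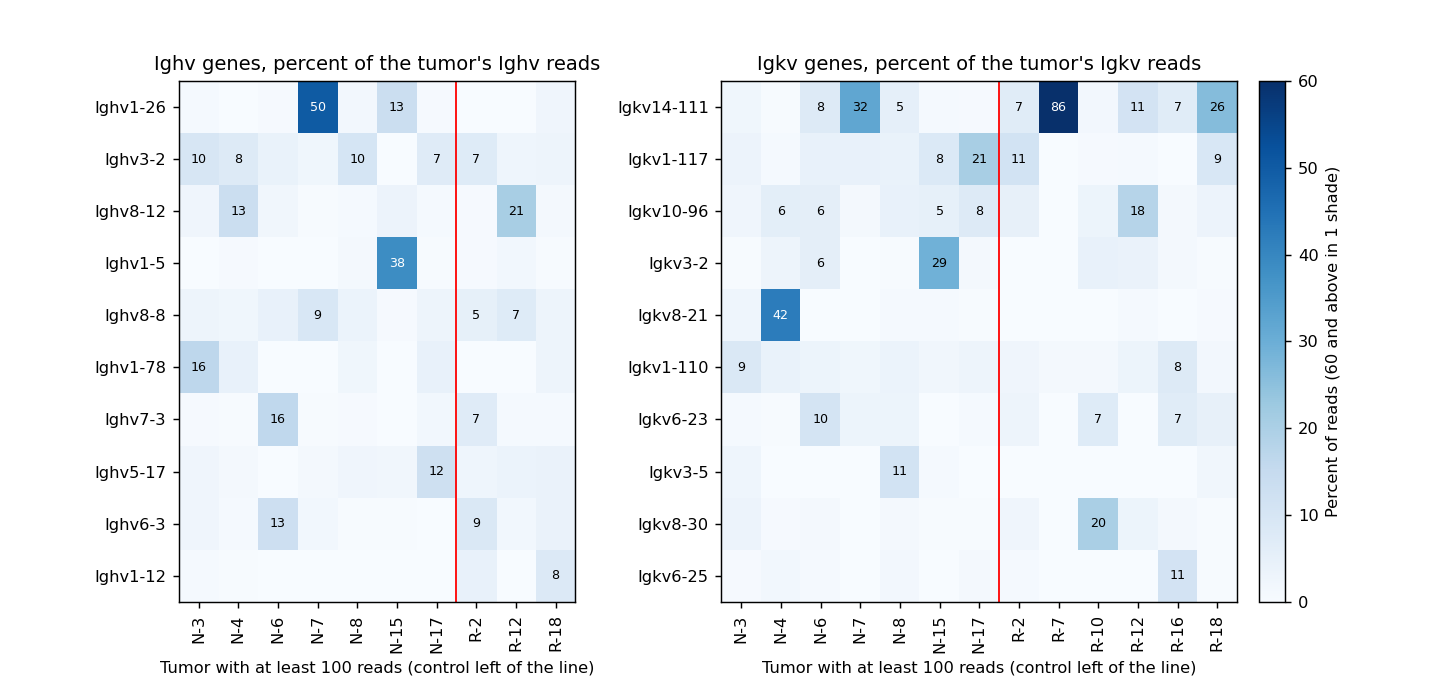
Share of heavy V (left) and kappa V (right) reads taken by single V genes in percent, for tumors with at least 100 reads of that kind, with shares of 5% or more written in the cell and control tumors left of the line. Dominant genes differ from tumor to tumor, as Ighv1-26 in N-7 (50.2%), Igkv8-21 in N-4 (42.4%) and Igkv14-111 in R-7 (86.0%).

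No difference between cohorts in the dominance or evenness of V genes passed its test. The top heavy V gene took 22.4 ± 15.5% in 7 controls and 12.5 ± 7.0% in 3 RhoC tumors (-9.90 ± 7.10 points, SE, exact permutation p = 0.317, adjusted p = 0.528, where the smallest p these numbers allow is 0.0167). The top kappa V gene took 22.0 ± 12.9% in 7 controls and 28.8 ± 28.6% in 6 RhoC tumors (6.71 ± 12.7 points, SE, exact permutation p = 0.715, adjusted p = 0.867). The effective number of genes (the inverse Simpson index, which is the number of equally used genes that would give the same evenness) did not pass either, with log2 differences of 0.79 ± 0.55 for heavy V genes (SE, adjusted p = 0.528) and -0.14 ± 0.74 for kappa V genes (SE, adjusted p = 0.867), both by exact permutation. The kappa values in RhoC tumors rested on R-7. Without R-7 the difference in the top share was -4.74 points and that in the log2 effective number 0.46, each with the opposite sign.

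Gene by gene, 2 of the 230 members passed the test over all genes, both lower in RhoC tumors, against 0.119% of all 38730 genes tested in either direction and 0.0826% lower in RhoC tumors (edgeR quasi-likelihood test, Benjamini-Hochberg adjusted p under 0.05). Igkv8-21 had reads in 7 of 9 controls, from 0 to 11.5 CPM (N-4) with a median of 0.0593, and 3 reads in all RhoC tumors, 1 in R-12 and 2 in R-18 (log2 fold change -7.79 ± 1.44, SE, adjusted p = 0.0365). N-4 alone held 89.2% of its 640 reads. The log2 fold change was -4.18 without N-4, and -2.85 over all tumors with limma's voom and mouse as a random effect. Igkv13-85 was spread more evenly, with 91 reads in 7 controls, up to 39 in N-7, and 1 read each in R-10, R-16 and R-21 (log2 fold change -4.76 ± 0.89, SE, adjusted p = 0.0365, and -2.66 with voom and mouse as a random effect). In CPM, 7 of 9 controls lay above every RhoC tumor, and a control with 1 read can do so through library scaling alone. Of the 21 fits that left out 1 tumor, Igkv8-21 passed in 11 and Igkv13-85 in 9. No member passed without any 1 of N-4, R-1, R-6, R-7, R-13, R-14, R-15 and R-16. Over all genes, 0.0259% (without R-16) to 0.22% (without N-15) passed in those 21 fits.

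Most other members lay lower in RhoC tumors without passing. The fitted fold change was negative for 203 of 230 members, 88.3%, against 51.7% of all genes, and its median was -1.98 on the log2 scale against -0.03 over all genes, or -1.79 with the 60 members that had no read in 1 of the cohorts set to the limit that a count of 0 allows. With limma's voom and mouse as a random effect the member median was -0.63, and without N-8 in the edgeR fit it was -1.46. An unadjusted p under 0.05 with a lower level in RhoC tumors was reached by 122 members, 53.0%, against 9.81% of all genes, and by 75 of 222 members without N-8, 57 with DESeq2 and 51 with voom. In either direction, it was reached by 6981 of 38592 genes without N-8 (81 of them members), 5659 of 38730 with DESeq2 and 3530 of 38730 with voom. Members share tumors and cells, so these counts describe 1 pattern and are not separate pieces of evidence. By kind, the median log2 fold change was -1.85 for heavy V genes (99 of 112 negative), -2.09 for kappa V genes (91 of 105), -4.35 for the 3 lambda V genes, -2.60 for the 6 heavy constant genes and -2.16 for the 3 lambda constant genes. In the other direction, 3 members had an unadjusted p under 0.05 where 8.7% of all genes did. One of them, Igkv13-87, named here after its values were seen, had 10 reads in R-6 and 2 in R-12 and none in controls (adjusted p = 0.2).

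**Figure D5:**
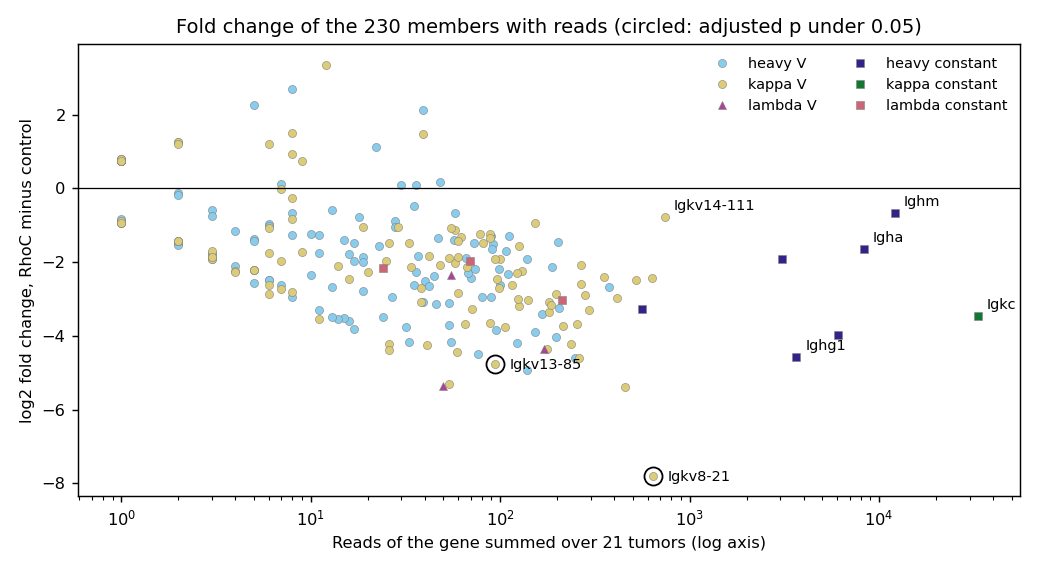
Log2 fold change of RhoC against control tumors for each of the 230 members, against its reads summed over 21 tumors on a log axis, with the 2 members that passed the test circled. Of the members, 203 lie below 0, with Igkc at -3.46 and Ighg1 at -4.56, whereas Ighm (-0.66) and Igkv14-111 (-0.78) lie nearer to 0.

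How many members passed depended on the method. DESeq2 called 21 members, all lower in RhoC tumors, of the 87 for which it gave an adjusted p, where it called 5.94% of all genes with one. The 21 included Igkc, Ighg1, Iglv1, Iglc2, Igkv1-110 and Ighv3-6. With only the Gata4 loxP/+ controls 7 members passed with edgeR (Igkv8-21, Iglv1, Igkv13-85, Ighv3-1, Igkv1-110, Ighv1-66 and Igkv2-109), where 0.427% of all genes did. None passed with counts summed over each mouse, with limma's voom and mouse as a random effect, without the tumors of mouse P497, or after the filterByExpr filter, which kept 9 members (unadjusted p under 0.05 in 99, 51, 88 and 5 members, against 13.3, 9.11, 12.2 and 20.5% of all genes). An antibody list of 12 members that had been drawn from these same tumors held both called genes, and 12 of 12 had a negative fold change with a median of -4.17. As the list was chosen on these tumors, it is not independent evidence.

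Jchain, which links IgA and IgM into polymers and is made by plasma cells, tracked the immunoglobulin genes. It ran from 0.0938 CPM (N-9) through a median of 4.74 to 19.3 CPM (N-8) in controls and from 0.0414 CPM (R-13) through a median of 0.457 to 5.71 CPM (R-2) in RhoC tumors, and the fitted log2 change was -2.74 ± 0.84 (SE, edgeR adjusted p = 0.124). Without R-2 that change was -3.53 (edgeR adjusted p = 0.0811). The ratio of Jchain to Igkc reads stayed between 0.0676 and 0.178 in controls and between 0.118 and 0.625 in RhoC tumors. Over 21 tumors the log2 immunoglobulin total and log2 Jchain had a Pearson's r of 0.95 and a Spearman's rho of 0.957 (permutation p = 1e-05 for both, the smallest these resamples can give, adjusted p = 6e-05 and 3e-05 over 6 relations). It held within the 9 controls (r = 0.985, rho = 0.983, exact p = 5.51e-06 and 4.96e-05), within the 12 RhoC tumors (r = 0.866, rho = 0.874, permutation p = 0.00026 and 0.00044), with 1 value per mouse (r = 0.975) and without the 2 tumors farthest from the median total, R-13 and N-4 (r = 0.954).

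Marker lists, each as the mean log2 CPM of its genes, were set beside the total over 21 tumors, and 4 of 5 passed, all but the epithelial list. The 18 plasma cell genes, of which Jchain is 1, gave r = 0.752 and rho = 0.775 (permutation p = 0.00011 and 7e-05, adjusted p = 0.00033 and 0.00014) and without the 2 farthest tumors r = 0.768. Within cohorts they gave r = 0.794 and rho = 0.633 in 9 controls (exact p = 0.0139 and 0.076, adjusted p = 0.0167 and 0.0912) and r = 0.651 and rho = 0.594 in 12 RhoC tumors (permutation p = 0.0195 and 0.0454, adjusted p = 0.0406 and 0.0681). Sdc1, which epithelial tumor cells also express, had the highest CPM among them. The 16 B cell genes gave r = 0.623 and rho = 0.866 (permutation p = 0.00254 and 1e-05, adjusted p = 0.00432 and 3e-05), and without the 2 farthest tumors r = 0.652. Within the 9 controls r was 0.929 and rho 0.883 (exact p = 0.000631 and 0.00308, adjusted p = 0.00189 and 0.00923). Within the 12 RhoC tumors r was 0.638 and rho 0.832 (permutation p = 0.0598 and 0.00134, adjusted p = 0.0898 and 0.00402). R-2 held 876 CPM of Cr2 and 781 CPM of Spib, far above every other tumor, and its part in the lower r was not tested. The 14 T cell genes gave r = 0.618 and rho = 0.634 (permutation p = 0.00288 and 0.00255, adjusted p = 0.00432 and 0.00382), and without the 2 farthest tumors r = 0.602. Their r and rho were 0.806 and 0.683 in 9 controls (exact p = 0.00922 and 0.0503) and 0.663 and 0.671 in 12 RhoC tumors (permutation p = 0.0203 and 0.0199). The 10 macrophage genes gave r = 0.532 and rho = 0.516 (permutation p = 0.0127 and 0.0182, adjusted p = 0.0153 and 0.0218), and without the 2 farthest tumors r = 0.492. Within cohorts the macrophage relation had r = 0.808 and rho = 0.567 in 9 controls (exact p = 0.00826 and 0.121) and r = 0.296 and rho = 0.266 in 12 RhoC tumors (permutation p = 0.355 and 0.404). The 7 epithelial genes gave r = -0.376 and rho = -0.416 (permutation p = 0.093 and 0.0621, adjusted p = 0.093 and 0.0621), and r = -0.197 without the 2 farthest tumors. Their r and rho were -0.637 and -0.75 in 9 controls (exact p = 0.0638 and 0.0255, adjusted p = 0.0638 and 0.051). In 12 RhoC tumors they were -0.316 and -0.35 (permutation p = 0.322 and 0.264).

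None of the 114 other genes on the lists passed the test between cohorts with edgeR, and 20 had an unadjusted p under 0.05, a share below the 18.5% of all genes. DESeq2 called 5 of the 104 to which it gave an adjusted p, a share below its 5.94% of all genes, with Cxcl13, Jchain and Ccl28 lower in RhoC tumors and Fcamr and Txndc5 higher. Of the 18 plasma cell genes, 9 had a negative and 9 a positive fold change with a median of 0.01, and without R-2 the median was -0.04. Mzb1, an endoplasmic reticulum chaperone for antibody assembly, was at 0.263 ± 0.164 CPM in controls and 0.0717 ± 0.0912 in RhoC tumors (SD, adjusted p = 0.183). Xbp1 had a negative log2 fold change (-0.67, adjusted p = 0.293). Sdc1 (1.17, adjusted p = 0.342), Prdm1 (0.42, adjusted p = 0.55) and Irf4 (0.29, adjusted p = 0.787) had positive ones. Sdc1 was at 508 ± 300 CPM in controls and 1141 ± 1432 CPM in RhoC tumors (SD). Xbp1, Sdc1, Prdm1 and Irf4 are also expressed by other cells. Of the 16 B cell genes, 7 were negative with a list median of 0.31, and without R-2 9 were negative with a median of -0.16. With all tumors, an unadjusted p under 0.05 was reached by 2 with a lower and 3 with a higher level in RhoC tumors. The 3 were Cr2, Spib and Fcer2a (log2 fold changes 9.86, 7.57 and 3.54, adjusted p = 0.0979, 0.111 and 0.2), named after their values were seen, and without R-2 their log2 fold changes were 1.59, 0.71 and -0.57. Ms4a1 (CD20) was at 0.268 ± 0.247 CPM in controls and 0.0647 ± 0.0876 in RhoC tumors (SD, adjusted p = 0.19). Mzb1, Ms4a1 and Cd79a were each under 1 CPM in every tumor, so their levels rest on few reads. Tnfrsf17, which encodes the plasma cell receptor BCMA, had no read in 5 controls and 6 RhoC tumors. Summed plasma cell list levels ran from 837 to 2514 CPM in controls and from 716 to 5202 CPM in RhoC tumors, and Mzb1 had no read in 4 RhoC tumors. Summed B cell list levels ran from 11.02 to 96.9 CPM and from 21.3 to 1719 CPM, and Cd79a had no read in 3 RhoC tumors. The part of these cells in the immunoglobulin differences was not tested. The medians of the remaining lists were 0.24 for 7 germinal center genes, 0.10 for 14 T cell genes, -0.23 for 10 macrophage genes, -0.18 for 13 B cell receptor signaling genes, 0.40 for 7 V(D)J recombination genes, -0.14 for 7 epithelial genes and -0.17 for 6 lymph node stroma genes, beside -0.03 over all genes. Without R-2 the T cell median was -0.37 (11 of 14 genes negative), the V(D)J recombination median -0.04, the germinal center median 0.08 and the lymph node stroma median -0.999, beside -0.06 over all genes.

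Genes that draw or keep antibody-making cells were read beside these. Of 13 such genes with reads, 9 had a negative fold change, against 51.7% of all genes, with a median of -0.57. Without R-2, 10 of the 13 were negative and the median was -0.67. Ccl28, a chemokine that draws IgA-producing cells to the mammary gland, had a median of 1.70 CPM in controls and 0.653 in RhoC tumors, with 12 of 12 RhoC tumors below the control median (log2 fold change -1.58 ± 0.44, SE, edgeR adjusted p = 0.107). Cxcl13, which draws B cells, had medians of 0.931 and 0.196 CPM (adjusted p = 0.112), with 13.7 CPM in N-3. Tnfsf13b, the survival factor BAFF, was at 4.43 ± 2.13 and 2.99 ± 1.72 CPM (SD, adjusted p = 0.448). Tnfsf13, of the same list and named after its values were seen, was at 33.3 ± 14.5 and 15.9 ± 12.9 CPM (SD, edgeR adjusted p = 0.174). Ltb, which encodes lymphotoxin beta and was named after its values were seen, was at 1.01 ± 0.986 and 2.83 ± 2.88 CPM (SD, adjusted p = 0.187). Pigr, the receptor that carries IgA and IgM polymers across epithelium, was at 59.2 ± 50.1 and 49.0 ± 90.1 CPM (SD, adjusted p = 0.893). The 10 genes for Fc receptors and antibody transport had a list median of -0.28. None was called with edgeR, and DESeq2 called Fcamr, a receptor for IgA and IgM, higher in RhoC tumors (log2 fold change 4.03, adjusted p = 0.0267; edgeR adjusted p = 0.152).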

How the data were processed

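Mammary tumors, 9 NeuNT control and 12 RhoC, were sequenced as ribosomal RNA-depleted total RNA. Per the labels, reads were trimmed with Trim Galore 0.5.0, aligned to GRCm38.p6 with STAR 2.6.0c and counted with HTSeq 0.6.1p2. The authors deposited raw counts per gene, from uniquely mapping reads of 1 gene only. They also deposited FPKM in tables with their own fold changes and p-values, which were not used. The strand setting was not given in the sources used here.

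Members and gene lists were chosen with earlier results of these data known. Counts were fitted with edgeR 4.0.16 in R 4.3.3 (TMM, glmQLFit, glmQLFTest, no covariate) on 38730 genes with a count, with p-values adjusted by Benjamini-Hochberg over all of them and a threshold of 0.05. The fit was tested on simulated data, with tumors drawn independently and changed genes that had more reads than most V genes here. That test does not speak for V genes with few reads. The per-length ratio used the deposited FPKM of the constant genes, where Iglc1 had none. Single values were compared by exact permutation of 293930 labelings (fewer where tumors lacked 100 V reads). Correlations used 100000 resamples, and all labelings among the 9 controls. Intervals (95% Wilson) and limits for 0 reads cover counting error only. Tumors of 1 mouse entered separately, and p-values then measure the spread between tumors. Alternatives used DESeq2 1.42.0, limma 3.58.1, filterByExpr, mouse sums and subsets of tumors.

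Genes named were the constant and lambda V genes, the 5 heavy and 5 kappa V genes with the highest mean share, the leading V gene of any tumor, called members, the antibody list and 13 markers, of which 1 is not reported here. Any other gene was named after its values were seen.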

Additional observations from a re-analysis of the deposited data

Results flagged for a closer look

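Of 61 values examined within cohorts, 9 had 1 tumor far from the others of its cohort by Dixon's 95% criterion, where chance gives about 1 in 20 for normally distributed values. Levels of V genes with few reads need not be so distributed, and the 61 values are not independent. In R-7 the top kappa V gene took 86.0% of kappa V reads, against 10.9 to 26.2% in the other 5 RhoC tumors with at least 100 such reads, and the log2 effective number of kappa V genes was 0.43 against 3.42 to 4.39. Both rest on Igkv14-111. In N-4, Ighg3 was at 3.10 and Igkv8-21 at 3.53 on the log2 CPM scale, with every other control below 0. In N-15, Ighv1-5 was at 1.14, and in N-8, Igkv3-5 was at 2.28 and Ighv1-7 at -0.85, on the same scale. In N-3, Ighv1-12 was at -3.29, from 5 reads. The lambda share of light constant reads was 4.17% in N-9, against 0.289 to 2.20% in the other controls, and N-9 had 48 light constant reads.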

How the results depend on the processing

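The immunoglobulin total kept its direction in every alternative run, at -2.81 to -1.89 when 1 tumor was left out, and its call was lost with mouse sums (-1.67), with only the Gata4 loxP/+ controls (-2.08), without mouse P497 (-1.73) and on constant genes alone (-2.15). The heavy to light ratio was 1.47 to 1.94 with 1 tumor left out and lost its call with only the Gata4 loxP/+ controls (1.79), without mouse P497 (1.76), from V reads (0.20) and without Ighm (0.26). The IgM share difference was 27.1 to 34.4 points with 1 tumor left out and lost its call with mouse sums (26.4), with only the Gata4 loxP/+ controls (31.0) and without mouse P497 (23.2). The IgG share difference was -31.4 to -22.9 points with 1 tumor left out, all 21 of them called, and lost its call with mouse sums (-26.3) and without mouse P497 (-25.7). The cause of these changes was not tested. The uncalled differences changed sign in places. The IgA share gave 0.71 points with only the Gata4 loxP/+ controls, 2.49 without mouse P497 and -4.44 to 1.504 with 1 tumor left out. The lambda share gave -1.90 points from V reads and -0.044 to 1.14 with 1 tumor left out. The top kappa V share gave -6.62 points without Igkv14-111 and -4.74 to 10.3 with 1 tumor left out, and the log2 effective number of kappa V genes gave 0.59 and -0.34 to 0.46. The top heavy V share gave -13.9 to -5.27 points and the log2 effective number of heavy V genes 0.47 to 1.11 with 1 tumor left out. The count of members called was 0 with filterByExpr, mouse sums, voom and without mouse P497, 21 with DESeq2, 7 with only the Gata4 loxP/+ controls and 0 to 6 with 1 tumor left out. It was 0 without N-4, R-1, R-6, R-7, R-13, R-14, R-15 or R-16 and 6 without R-18. Over all genes 46 were called, 3 with mouse sums, 2 with voom, 163 with only the Gata4 loxP/+ controls, 3 without mouse P497 and 1452 with DESeq2. With 1 tumor left out, 10 (0.0259%, without R-16) to 85 (0.22%, without N-15) of all genes were called, and 63 (0.163%) without R-18. Of the list genes, 5 were called with DESeq2 and 1 (Ccl28) with only the Gata4 loxP/+ controls, and 0 with any 1 tumor left out. Igkv4-91 changed from -2.40 to 0.65 under DESeq2. With a minimum of 1000 V reads no RhoC tumor remained, so no value could be given. The settings without Ighm and without Igkv14-111, those of the lists (without R-2 included), and the mean shares of V genes without 1 tumor were chosen after seeing the data. No paired analysis was possible because the tumor numbers of the cohorts name separate mice. V genes with few reads limit the depth of any call on a single gene.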
